A study of Mus musculus with 4 samples.

Results

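Chromatin accessibility was examined at 10 genes that set how muscle stem cells answer growth factors: the receptors Met, Fgfr1, Fgfr4 and Egfr, and the signalling brakes Spry1, Spry2, Spry4, Spred1, Spred2 and Dusp6. They were chosen by gene name, and every deposited region linked to 1 of these names was taken. This gave 15 of the 35019 regions in the deposited table, 11 at promoters and 4 farther away, and each of the 10 genes had at least 1. The study used ATAC-seq, in which Tn5 transposase cuts and tags open DNA, on quiescent satellite cells, the resting stem cells of skeletal muscle, isolated by flow cytometry. Cells came from mdx mice, a model of Duchenne muscular dystrophy that carries no functional dystrophin, and from wild type mice. There were 2 libraries of mdx cells and 2 of wild type cells, while the design text names 3 mice per condition. No treatment is named, and the sources used here give no age, sex or strain background. Nothing states that the libraries came from separate mice, so the p-values rest only on how far these libraries differ from each other, and that spread may be technical.

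HGF, held in the muscle matrix and freed on injury, binds MET and is a classic signal for satellite cells to leave rest. FGF ligands act through FGFR1 and FGFR4, and EGF ligands through EGFR, and all of these receptors feed the RAS-ERK kinase cascade. Sprouty and Spred proteins dampen the cascade upstream of ERK, and DUSP6 is a phosphatase that inactivates ERK itself. SPRY1 in particular is known to be needed for mouse satellite cells to return to rest after injury.

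The Met promoter fell in mdx cells, and it was the only 1 of the 15 regions to pass the test. The other 14 did not pass. Of these, 13 lay below 0 on the log2 fold change scale, as most tested promoters did, and ran from -0.93 to -0.10. The exception was the Dusp6 promoter, at 0.36. A low region deep inside Met, with no gene in the deposited annotation, held 68 and 35 scaled reads in mdx, against 5 and 6 in wild type, and met the filter on low values through the mdx libraries alone.

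The sequences of 3 promoters are shown because Met carried the change, Dusp6 was the exception in sign and Spry2 was the most open of the group. Each is the 250 bases before the gene start in RefSeq (GRCm38.p6, the assembly behind mm10), read 5′ to 3′ on the gene's strand. RefSeq promoter windows matched 8 of the 10 genes, all but Fgfr1 and Spry4. Capitals mark matches, on either strand, to the E-box CANNTG, the AP-1 motif TGANTCA, the GC box GGGCGG and the longer ETS motif CCGGAAGT, and no 2 of these overlap here.
Met, chr6:17463707-17463956, plus strand: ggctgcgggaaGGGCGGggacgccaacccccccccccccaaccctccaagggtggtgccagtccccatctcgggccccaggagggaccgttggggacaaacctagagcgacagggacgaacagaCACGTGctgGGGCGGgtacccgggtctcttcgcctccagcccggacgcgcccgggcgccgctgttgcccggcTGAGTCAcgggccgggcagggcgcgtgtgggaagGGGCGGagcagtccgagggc
Dusp6, chr10:99262981-99263230, plus strand: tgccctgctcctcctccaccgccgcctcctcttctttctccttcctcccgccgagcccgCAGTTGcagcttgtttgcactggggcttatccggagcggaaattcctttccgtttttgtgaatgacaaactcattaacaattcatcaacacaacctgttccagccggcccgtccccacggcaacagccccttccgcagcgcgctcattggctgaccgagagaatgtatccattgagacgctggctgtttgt
Spry2, chr14:105896820-105897069, minus strand: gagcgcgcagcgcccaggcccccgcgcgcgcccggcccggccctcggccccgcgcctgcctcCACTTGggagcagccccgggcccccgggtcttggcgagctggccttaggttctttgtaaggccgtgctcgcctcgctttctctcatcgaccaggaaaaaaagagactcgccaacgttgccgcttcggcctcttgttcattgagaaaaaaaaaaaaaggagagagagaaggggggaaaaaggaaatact
The Met and Dusp6 windows lie wholly inside their accessible promoter regions, and the Spry2 window overlaps the edge of its region. RefSeq places this Met start downstream of the start used in the deposited table. Some match to the AP-1 motif TGANTCA was found in 6.7% of all 32851 windows of this length. The Met window held one, TGAGTCA, at bases -54 to -48 from the RefSeq start, and no other of the 8 windows did. It also held 3 GC boxes, a motif found in 32.7% of all windows, and the E-box CACGTG at -126 to -121, where 66.2% of windows hold some E-box. The short ETS core GGAA, present in 93.4% of windows, occurred 2 times in the Met window and 6 times in the Dusp6 window, and the longer ETS motif, present in 2.9%, occurred in none of the 8. GC content was 74.0% in the Met window, 56.4% in the Dusp6 window and 62.4% in the Spry2 window, against a median of 52.4%. These are letter matches and not measured binding sites.

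Values below are scaled reads per region, that is, read numbers that the authors rescaled by a constant of each library and rounded. Over all listed regions, 3208487 and 3607651 reads were recovered for mdx and 3693087 and 8164388 for wild type. The number for wild type replicate 2 rests on a less certain constant than the others. These totals include mitochondrial regions, which took 17.74% and 13.72% of scaled reads in mdx, against 14.05% and 9.31% in wild type. Of nuclear scaled reads, promoter regions took 52.76% and 57.21% in mdx, against 64.15% and 61.09% in wild type. Satellite cell markers had a promoter region for 8 of 11 genes, with summed values of 1468 and 1536 in mdx and 1964 and 1678 in wild type, and Pax7, the defining factor of these cells, held 90 and 103 in mdx, against 93 and 124 in wild type. Promoter regions were listed for 0 of 6 immune markers, 0 of 5 Schwann cell and tenocyte markers, 1 of 6 endothelial markers, 1 of 6 muscle fibre markers and 3 of 5 markers of smooth muscle and pericytes. The muscle fibre marker, Myh1, held 87 and 110 in mdx, against 44 and 73 in wild type. A distal region of the fibre marker Ttn held 75 and 86 in mdx, against 10 and 47 in wild type. A distal Myh1 region held 43 and 21 in mdx, against 20 and 13 in wild type. Neither distal region passed (limma, adjusted p = 0.0804 and 0.343). Summed smooth muscle and pericyte markers were at 309 and 249 in mdx and 194 and 253 in wild type, and the endothelial marker Tek was at 152 and 131 in mdx and 131 and 146 in wild type. For fibro-adipogenic progenitors, which form muscle connective tissue, 4 of 7 markers had one, with sums of 206 and 227 in mdx and 113 and 152 in wild type, mostly through Osr1 and Col3a1. The defining markers Pdgfra and Ly6a had no promoter region, and 2 distal Pdgfra regions held 84 and 77 in mdx, against 97 and 102 in wild type, and 25 and 35 in mdx, against 38 and 34 in wild type. No region of any marker's promoter passed in either direction. In a bulk library, fewer cells with an open region and less opening per cell cannot be told apart.

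The comparison of mdx with wild type asks how chromatin of dystrophic muscle stem cells differs. It was fitted with limma on log2(value + 1) over the 33161 regions that held at least 10 scaled reads in at least 2 libraries, and p-values were adjusted by Benjamini-Hochberg over all of these. Log2 fold changes below are mdx over wild type on that scale. All 15 regions of the group were tested, and none held under 10 in any library. Of them, 1 passed as lower and 0 as higher at an adjusted p under 0.05, against 0.881% of all tested regions called lower, 3.3% called higher and 4.18% called in either direction. Among tested regions with a gene name, 1.64% were called lower and 0.672% higher. The groups did not overlap, with mdx lower, in 10 of the 15, against 42.9% of tested regions with a gene name. The log2 fold change was below 0 in 14 of 15, against 73.8%, with a median of -0.35. All tested promoters had a median of -0.25 and all tested distal regions, most of them without a gene name, one of 0.19. Tested promoter and distal regions with a gene name had medians of -0.26 and -0.01. At an unadjusted p under 0.05 (limma), 7 of the 15 were lower and 0 higher, where 17.5% of tested regions with a gene name were lower and 3.38% higher. With the medians of distal regions set equal between libraries, 7 of the 15 passed as lower: the Met, Egfr, Spry1, Spry2 and Spred2 promoters, the Spred2 region inside the gene and the Dusp6 region upstream. That scaling moved the median of all tested regions to -0.35, against -0.01 as reported. It called 3465 of all 33161 tested regions lower, against 292 as reported. With promoter medians set equal, the Met promoter alone of the 15 passed, and the median of all tested regions was 0.19.

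**Figure D1:**
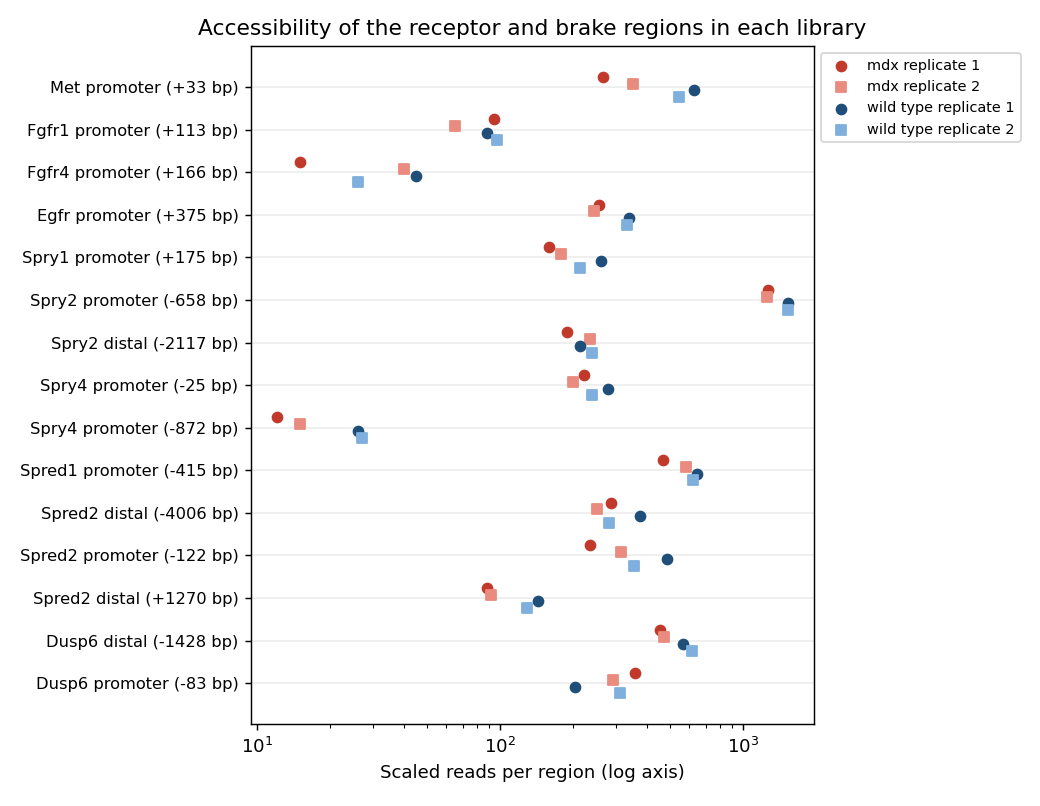
Scaled reads (horizontal log axis) in each of the 15 regions (rows, with the distance of the region centre from the gene start, minus meaning before it), 1 point per library, red for mdx and blue for wild type. Both mdx points lie left of both wild type points at Met (265 and 352 against 627 and 542), and the Dusp6 promoter is the row where mdx points lie farthest to the right relative to wild type.

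Met encodes the receptor tyrosine kinase for HGF. Its promoter region, chr6:17463416-17464249, spans the gene start, with its centre 33 bp from it. It held 265 and 352 scaled reads in mdx, against 627 and 542 in wild type. Both mdx libraries lay below both wild type libraries, and the gap between groups was wider than either pair's own spread. The mean was 308.5 ± 61.5 in mdx and 584.5 ± 60.1 in wild type (SD, n = 2 each). In limma this was a 1.91-fold loss (log2 fold change -0.93, SE 0.19, adjusted p = 0.0231), and 5.3% of tested promoter regions lay lower on that scale. The recovered reads behind these values were 192 and 303 in mdx and 513 and 1101 in wild type. The 4 libraries had the same order at Met as in the share of reads at promoters given above. With promoter medians set equal between libraries the Met value was -0.73 and still passed (limma, adjusted p = 0.0252). With no filter on low values it missed the threshold (limma, adjusted p = 0.0519), the highest of 11 alternatives that kept all libraries. The lowest (limma, adjusted p = 2.09e-05) came from pairing libraries of unlike replicate number, a crossed pairing chosen after seeing the data. The lowest planned one had distal medians set equal (limma, adjusted p = 0.00133). Leaving out any 1 library gave log2 fold changes from -1.13 to -0.73, and no region of the whole table passed in those fits, which leave 1 library in a group.

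Among 7863 other named promoters with a mean of at least 50 scaled reads, the 5 with the pattern over the 4 libraries most like that of Met were those of Klf10, Cnih1, Pbdc1, Plekha7 and Sgpp1. Likeness was the Euclidean distance of log2 values centred on each region's mean, and ran from 0.058 for Klf10 to 0.083 for Sgpp1. The Klf10 promoter, of a zinc finger factor induced by TGF-beta, held 589 and 774 in mdx and 1325 and 1157 in wild type. That likeness was the reason for naming it.

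Inside Met, 8 further regions carried no gene in the deposited annotation and were placed by RefSeq gene position. Of these, 7 did not pass, with log2 fold changes from -0.37 to 0.83. The eighth, chr6:17554870-17555105, lies 91188 bp after the gene start by its centre. It held 68 and 35 scaled reads in mdx, against 5 and 6 in wild type, from 49 and 30 recovered reads in mdx, against 4 and 12 in wild type. The groups did not overlap, and this region rose by 2.94 on the log2 scale (SE 0.54, limma, adjusted p = 0.0157). It met the filter on low values through the mdx libraries alone, so, with wild type this low, it could be tested only because it was higher in mdx. With no filter it still passed (limma, adjusted p = 0.0422, the highest of 10 alternatives that kept all libraries, which ran from 0.000175). When any 1 library was left out it lay between 2.47 and 3.41, in fits that called no region of the whole table. Transcript models were not used here, so exon or intron is not assigned. Its difference from the Met promoter was not tested. The summed promoter values of fibro-adipogenic progenitor markers and the Myh1 and Ttn values were also higher in both mdx libraries, as given above. Their part in this region was not tested.

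**Figure D2:**
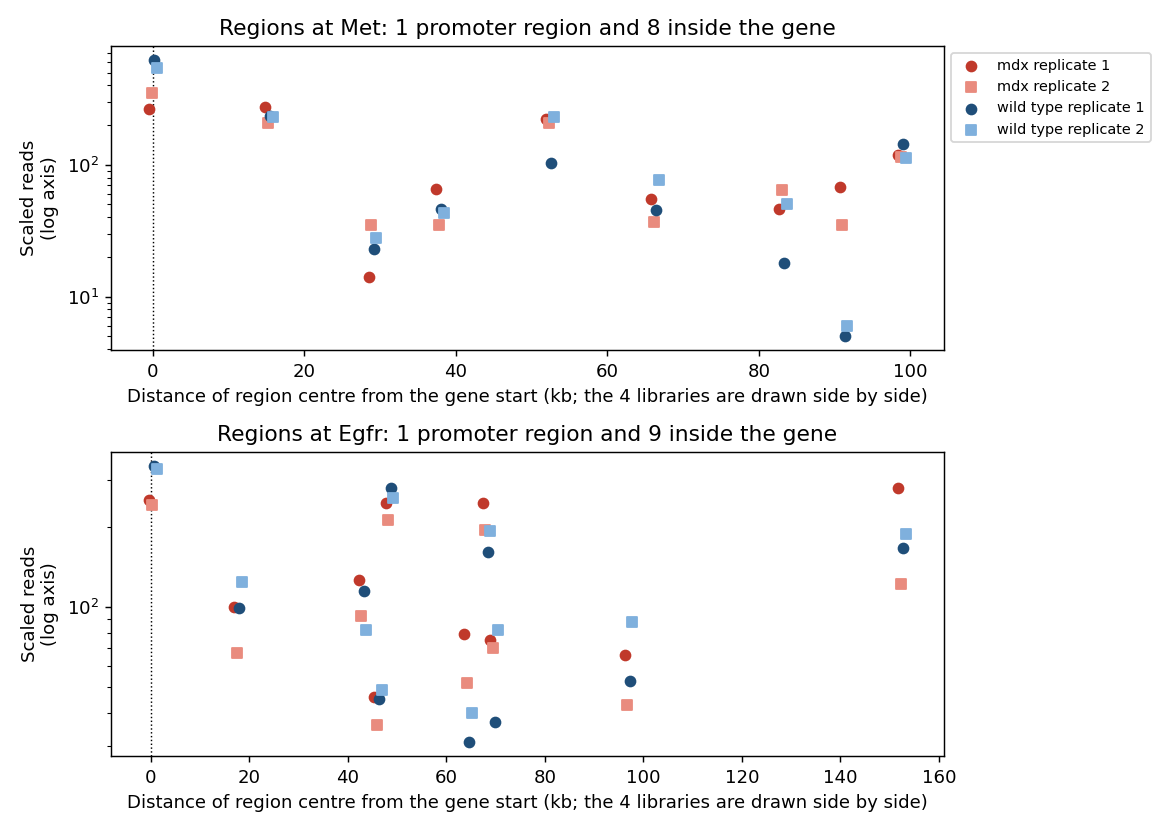
Scaled reads (vertical log axes) against the distance of each region's centre from the gene start in kb, for Met (top) and Egfr (bottom), 1 point per library, red for mdx and blue for wild type. At Met the mdx points are the lower ones at the start and the higher ones at the region 91188 bp inside the gene (68 and 35 against 5 and 6).

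Egfr encodes the receptor of EGF, amphiregulin and epiregulin. Its promoter region, chr11:16752050-16753105, held 254 and 243 scaled reads in mdx, against 340 and 332 in wild type. These pairs were tight and did not overlap. At -0.43 (SE 0.19, 95% interval -0.84 to -0.03) the fold change missed the threshold (limma, adjusted p = 0.187). Its value was -0.77 with distal medians set equal and -0.24 with promoter medians set equal (limma, adjusted p = 0.032 and 0.497). Another 9 regions inside Egfr had no deposited gene, and 0 of them passed, with log2 fold changes from -0.43 to 0.85.

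Fgfr1 encodes a receptor for FGF2 that satellite cells carry. Its promoter, chr8:25518652-25519091, held 94 and 65 in mdx and 88 and 97 in wild type. The groups overlapped, since 1 mdx library lay between the wild type ones. Its log2 fold change, -0.24, had an interval of -0.88 to 0.40 (95%, limma, adjusted p = 0.669), which reaches almost to the value of Met.

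Fgfr4 encodes another receptor for FGF ligands. Its region, chr13:55152681-55152930, lies inside the gene with its centre 166 bp from the start, and held only 15 and 40 in mdx and 45 and 26 in wild type. The groups overlapped and the libraries of each group differed widely. The estimate of -0.46 had an interval of -1.58 to 0.66 (95%, limma, adjusted p = 0.633), and it was 0.22 without mdx replicate 1. Recovered reads were 11 and 34 in mdx, against 37 and 53 in wild type. The interval holds both losses and gains, and the smallest change that could be detected was not computed. Of regions with no deposited gene, 4 lay in or within 10 kb of Fgfr1 and 2 near Fgfr4, and none passed. Over all 10 genes there were 27 such regions. Of these, 1 rose, the one in Met that met the filter through the mdx libraries alone, and 26 did not pass. That count is near the background, since 4.65% of tested distal regions were called higher. The median log2 fold change of the 27 was 0.06. Another 3 regions, inside Fgfr1, Egfr and Spred1, were linked to other genes, and none of them passed, at -0.29, -0.20 and -0.89 in that order (limma, adjusted p = 0.531, 0.667 and 0.426).

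Spry1 encodes the Sprouty protein tied to the return to rest. Its promoter, chr3:37639723-37640520, held 158 and 178 scaled reads in mdx, against 260 and 213 in wild type. The groups did not overlap, although the wild type libraries differed from each other by more than the mdx libraries did. At -0.49 (SE 0.22) it missed the threshold (limma, adjusted p = 0.204). Setting distal medians equal gave -0.82, and setting promoter medians equal gave -0.29 (limma, adjusted p = 0.0351 and 0.452).

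Spry2 encodes a Sprouty protein that is itself switched on by FGF signalling. Its promoter region, chr14:105896928-105898025, held 1262 and 1247 in mdx and 1531 and 1522 in wild type. The pair within each group was almost equal, and the groups did not overlap. The fitted value was -0.28 (SE 0.13), which missed the threshold (limma, adjusted p = 0.199). Its sign turned to 0.09 after cyclic loess, which removes a trend with level. A second region farther upstream, chr14:105898796-105899076, held 189 and 234 in mdx and 213 and 238 in wild type and overlapped between groups, with a log2 fold change of -0.10 (limma, adjusted p = 0.826).

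Spry4 encodes a further Sprouty protein, which also restrains ERK signalling. Its region over the gene start, chr18:38600837-38601749, held 221 and 200 in mdx and 277 and 239 in wild type. A narrow region upstream, with its centre 872 bp from the start, held 12 and 15 in mdx and 26 and 27 in wild type. Neither overlapped between groups, and neither passed, with log2 fold changes of -0.29 at the start and -0.93 upstream (limma, adjusted p = 0.426 and 0.281). The upstream value equals that of Met on this scale but rests on 9 and 13 recovered reads in mdx, against 21 and 55 in wild type, and its SE was 0.49.

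Spred1 and Spred2 encode relatives of Sprouty that act with neurofibromin to switch off RAS. The Spred1 promoter, chr2:117120379-117121538, held 467 and 583 in mdx and 646 and 621 in wild type. Both mdx values were below both wild type values, with 1 mdx library close to them, and the fitted -0.28 missed the threshold (limma, adjusted p = 0.345). The Spred2 promoter, chr11:19923999-19924507, held 235 and 315 in mdx and 487 and 356 in wild type. It was the brake region with the smallest p, at -0.61 on the log2 scale (SE 0.22), and it missed the threshold (limma, adjusted p = 0.12). Setting distal medians equal gave -0.95 for this promoter, and setting promoter medians equal gave -0.41 (limma, adjusted p = 0.0147 and 0.204).

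The other Spred2 regions had values below 0 as well. The region inside the gene, chr11:19925426-19925864, held 88 and 92 in mdx, against 143 and 129 in wild type, which limma put at -0.59 (adjusted p = 0.186). The groups there did not overlap. The region 4006 bp before the start held 285 and 249 in mdx and 376 and 280 in wild type, overlapping between groups, at -0.28 (limma, adjusted p = 0.445).

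Dusp6 encodes the ERK phosphatase that ERK signalling itself induces. Its promoter, chr10:99262942-99263354, held 357 and 290 in mdx and 203 and 310 in wild type. The groups overlapped, since wild type replicate 2 lay between the mdx libraries, and only wild type replicate 1 was low. The value of 0.36 (SE 0.23) missed the threshold (limma, adjusted p = 0.383). Without wild type replicate 1 it was 0.05. The region upstream, chr10:99261403-99262203, held 456 and 471 in mdx and 566 and 617 in wild type. There the groups did not overlap, with mdx lower, at -0.35 (limma, adjusted p = 0.214).

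The difference between the promoter and the other linked regions of 1 gene was tested over the 566 named genes with both kinds, so that the scaling of a library cancels. For Dusp6, the log2 promoter value minus the log2 upstream value was -0.35 and -0.70 in mdx and -1.47 and -0.99 in wild type. The promoter was thus closer to the upstream region in both mdx libraries than in either wild type library. The difference of 0.71 in log2 with SE 0.29 did not pass (limma, adjusted p = 0.134). Over all 566 genes 6.71% were called, 0.353% higher and 6.36% lower in mdx, and the median was -0.24. For Spred2 and Spry2 the difference was -0.18 in each, and neither passed (limma, adjusted p = 0.867 and 0.825).

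**Figure D3:**
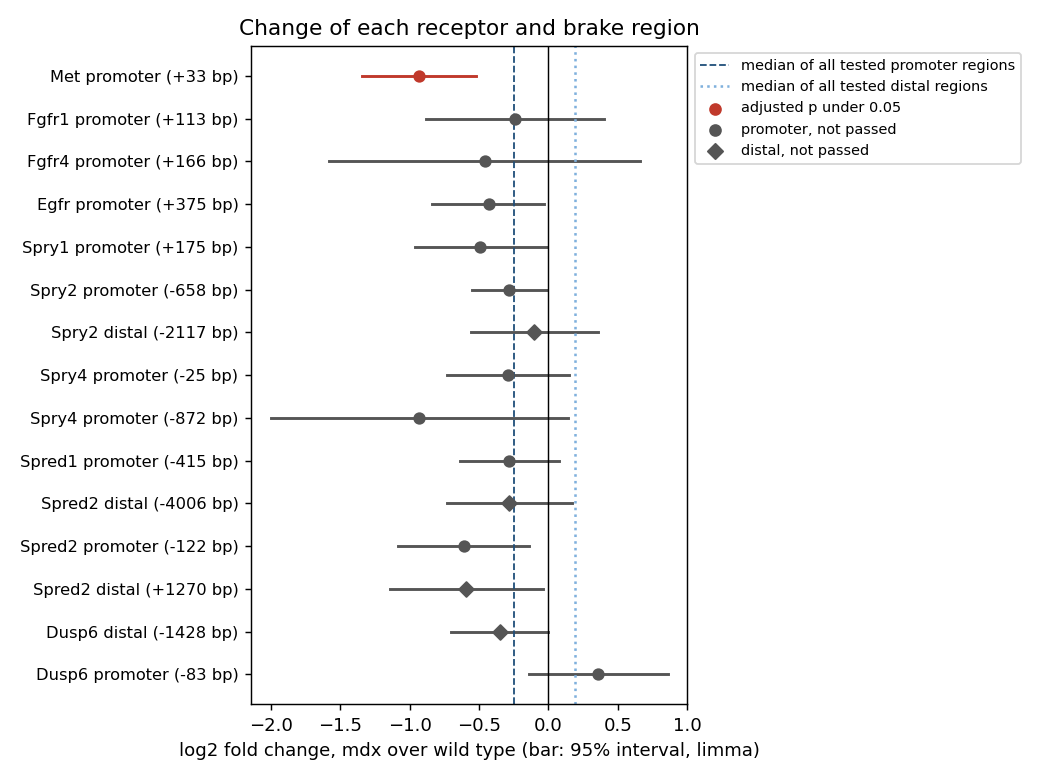
Log2 fold change, mdx over wild type (horizontal axis), for each of the 15 regions (rows), with 95% intervals from limma and dashed and dotted lines at the medians of all tested promoter regions (-0.25) and distal regions (0.19). The Met promoter, in red, is the 1 region that passed, and its interval of -1.34 to -0.52 lies wholly below the promoter median.

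Levels were compared between genes as scaled reads per kb of region. In mdx, the Spry2 promoter was highest at 1150.4 and 1136.7 per kb, followed by Dusp6 (866.5 and 703.9), Spred2 (462.6 and 620.1), Spred1 (402.9 and 503.0) and Met (318.1 and 422.6). Spred2 and Spred1 overlapped, as did Spred1 and Met. In wild type, the order was Spry2 (1395.6 and 1387.4), Spred2 (958.7 and 700.8), Met (752.7 and 650.7), Dusp6 (492.7 and 752.4) and Spred1 (557.4 and 535.8). From Spred2 to Spred1 each neighbour in this wild type order overlapped with the next. Met thus averaged below Dusp6 and Spred1 in mdx and above both in wild type.

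The lower places held the same 5 genes in both groups. Egfr, Spry4 and Spry1 averaged 235.5, 230.8 and 210.8 per kb in mdx and 318.5, 282.9 and 296.7 in wild type, with Spry4 taken at its start region, and they overlapped in turn. Fgfr1 averaged 181.1 ± 46.7 in mdx and 210.7 ± 14.5 in wild type, and Fgfr4 110.4 ± 71.0 in mdx and 142.6 ± 54.0 in wild type (SD, n = 2 each). These neighbours overlapped in mdx and did not in wild type. Set against all nuclear promoter regions by wild type level per kb, Spry2 stood at percentile 99.2, Met at 92.1, Fgfr1 at 45.6 and Fgfr4 at 27.1.

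The other genes of these pathways were taken from 5 lists of 96 genes, of which 79 had a linked region, 93 tested regions in all. Of these 93, 0 rose, 2 fell and 91 did not pass, where 0.672% of tested regions with a gene name were called higher and 1.64% lower, so the count is near that background. Their median log2 fold change was -0.23. Among 16 ligand genes, 10 were linked and 0 of 11 regions passed. The promoter of Hgf, the ligand of Met, held 53 and 48 in mdx and 15 and 28 in wild type, without overlap, at 1.26 in log2 (SE 0.43, limma, adjusted p = 0.111). The promoter of Ereg, the EGFR ligand epiregulin, held 53 and 29 in mdx and 12 and 16 in wild type, at 1.44 (limma, adjusted p = 0.105). These were the ligands with the smallest p, and both were low regions. The summed fibro-adipogenic progenitor markers, Myh1 and Ttn were higher in mdx as well, and their part in the Hgf value was not tested.

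Among 16 other receptor and coreceptor genes, 12 were linked, and 1 of 14 regions passed. The promoter of Fgfr3, a further FGF receptor, fell: chr5:33721587-33722114 held 37 and 38 in mdx, against 106 and 93 in wild type. Within each group the values were close there and the groups lay far apart. The fitted change was -1.38 (SE 0.31, limma, adjusted p = 0.0314). It missed the threshold with no filter on low values (limma, adjusted p = 0.058), the highest of the alternatives that kept all libraries. The lowest were the crossed pairing, chosen after seeing the data, and distal medians set equal (limma, adjusted p = 0.00201 and 0.00213). Without any 1 library the Fgfr3 value lay between -1.47 and -1.29. A region with its centre 2023 bp before the start of Nrp1, a semaphorin and VEGF coreceptor, was at 0.50 and did not pass (limma, adjusted p = 0.166).

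Among 22 adaptors and kinases of the cascade, 20 were linked, and 0 of 22 regions passed, with a median of -0.30. The smallest p belonged to the promoter of the RAS gene Nras, with 59 and 58 in mdx and 97 and 117 in wild type (-0.85 in log2, limma, adjusted p = 0.104), and to that of the exchange factor gene Sos2 (-0.53, limma, adjusted p = 0.153). Among 22 further brake genes, 19 were linked, 0 of 20 regions passed, and the median was -0.16. Rasa1, a RAS GTPase activator, had 1010 and 1043 in mdx and 1328 and 1289 in wild type (-0.35, limma, adjusted p = 0.138), and Dusp2, another phosphatase, was at -0.56 (limma, adjusted p = 0.191).

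Among 20 ERK-responsive factors and targets, 18 were linked, and 1 of 26 regions passed, with a median of -0.29. That region was the promoter of the AP-1 subunit gene Jun, which fell, with 1689 and 1932 in mdx and 2912 and 2442 in wild type (-0.56 in log2, limma, adjusted p = 0.0356). With no filter on low values the Jun promoter missed the threshold (limma, adjusted p = 0.0768). After cyclic loess the Jun value was -0.14 and did not pass either (limma, adjusted p = 0.379), the highest of the alternatives that kept all libraries. The lowest was the crossed pairing, chosen after seeing the data (limma, adjusted p = 9.53e-06). The lowest planned one was voom on recovered reads (limma, adjusted p = 0.0068). Without any 1 library the Jun value lay between -0.69 and -0.43. Fos, its partner, was at -0.64 and did not pass (limma, adjusted p = 0.0612).

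**Figure D4:**
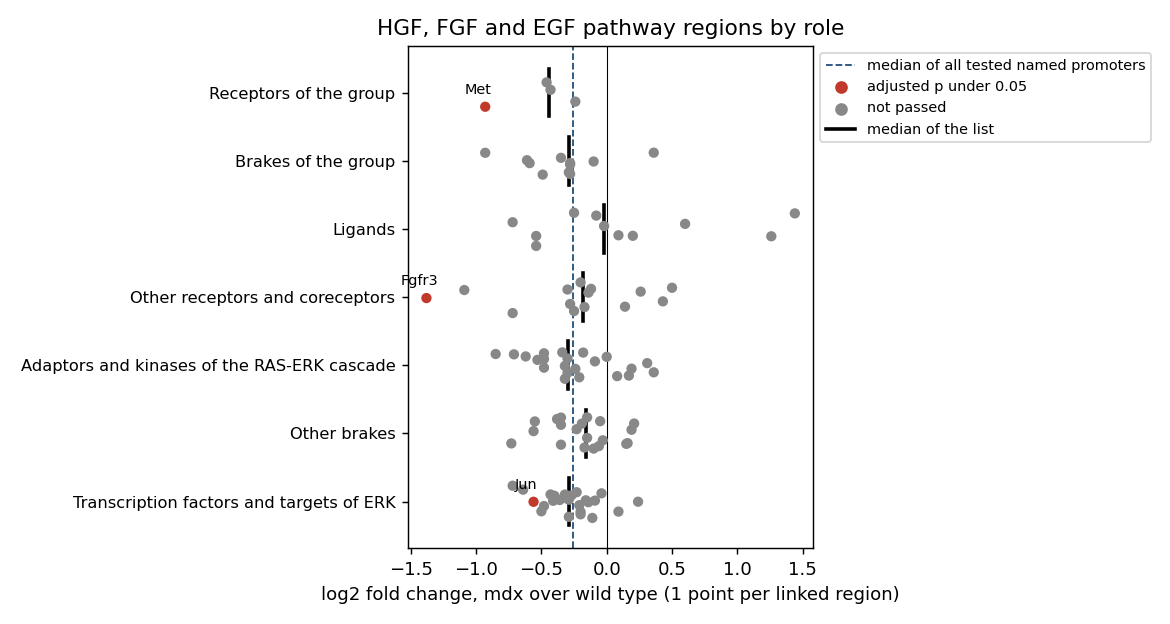
Log2 fold change, mdx over wild type (horizontal axis), with 1 point per linked region and a black bar at the median of each list; the dashed line is the median of all tested named promoters. Met (-0.93), Fgfr3 (-1.38) and Jun (-0.56) are the 3 regions that passed, all lower in mdx.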

How the data were processed

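Reads were processed by the authors on build mm10; MACS2 2.1.0, Picard 2.9.0, STAR 2.5.3a and Trimmomatic 0.33, besides DESeq and DESeq2, are named per the submitters' processing notes. Their roles, the removal of duplicates and any Tn5 offset have no statement in the sources used here. Deposited values carry the unit score: the authors' whole numbers skip exactly the values that factors of 1.382, 1.1619 and 1.2216 skip in mdx replicates 1 and 2 and wild type replicate 1, with 0 exceptions up to 400. Wild type replicate 2 skips no value up to 400. Its factor of 0.4921 was the one that best matched how often each value occurs, which is a weaker basis. Dividing by these factors gave the recovered reads. They count listed regions only and are not library totals.

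Coordinates are printed as deposited; whether starts count from 0 is not stated. A promoter region overlaps 1 kb on either side of the deposited gene start, and other regions are called distal; distances to the start are the deposited ones, except for regions with no deposited gene. RefSeq positions (GRCm38.p6) placed those; 99.9% of 10211 matched symbols overlapped the deposited gene.

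Regions were tested with limma 3.58.1 (R 4.3.3, trend in the prior variance), group as the only term, two-sided, threshold 0.05. With 2 against 2 libraries an exact permutation test of a single region cannot give p below 0.333. Log2(value + 1) understates changes of low regions. Members and lists were chosen with earlier results of these data known. Besides every linked region of the 10 genes, the text names list regions that passed, 2 genes with the smallest p in each list, unlinked regions that passed and the 5 promoters most like that of the gene with the smallest p. Alternatives varied scaling, filter, pseudocount, model, pairing and libraries.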

Additional observations from a re-analysis of the deposited data

How the results depend on the processing

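With 2 libraries per group, the depth of 3 of the 4 libraries and the single scaling factor of each limit what could be seen. Of 11 alternatives that kept all libraries, the Met promoter passed in 10 (log2 fold change -1.27 to -0.73), and missed with no filter on low values (-0.93, limma, adjusted p = 0.0519). Fits that left out 1 library gave -1.13 to -0.73 for Met, but called 0 regions in the whole table in either direction, so 0 of the 15 and 0 of the 93 list regions passed there; the lone library is assumed to vary like the other group. Signs turned for Spry2: the promoter was at 0.09 after cyclic loess, and the region farther upstream at 0.10 with promoter medians set equal. Without 1 library, the range was -0.25 to 0.06 for that upstream region, -0.50 to 0.02 for Fgfr1, -1.14 to 0.22 for Fgfr4 and -0.42 to 0.07 for the Spred2 difference of promoter minus distal; the cause was not tested.

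Of the 15 regions, the number called lower was 7 with distal medians set equal (the median of all regions then moved to -0.35, against 0.19 with promoter medians set equal and -0.01 as reported), 0 with no filter and 3 with crossed pairing. Of the 93 list regions, the number lower was 18 with distal medians set equal, 1 after cyclic loess, 0 with no filter, 4 with a mean of at least 50, 4 with voom on recovered reads and 12 with crossed pairing, which also gave 3 higher. Over all regions, 1095 were higher and 292 lower as reported. The count higher was 1821 with promoter medians set equal, 1704 after cyclic loess and 404 with no filter. The count lower was 159 with promoter medians set equal, 3465 with distal medians set equal, 541 after cyclic loess, 54 with no filter, 725 with a mean of at least 50, 190 with a pseudocount of 0.1, 485 with a pseudocount of 5 and 448 with voom.

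The replicate number gave no pairing: libraries with the same number had a correlation of deviations of -0.109 over 33161 regions. With 2 libraries per group this is, with its sign turned, the correlation of the crossed pairing, and no pairing was read from it. With the replicate block, 2108 regions were higher and 653 lower, with no call changed among the 15 regions or the 93 list regions, and with the crossed pairing, chosen after seeing the data, 3394 and 2067. Counted by gene, promoter minus distal was called higher in 2 and lower in 36 as reported, 4 higher with a pseudocount of 0.1 and with crossed pairing, 0 and 0 with the replicate block, and 0 to 2 higher and 1 to 40 lower without 1 library. The Dusp6 difference passed with crossed pairing (0.71, limma, adjusted p = 0.0496; 0.0496 to 0.417 over the alternatives that kept all libraries).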
